A study of Mus musculus with 6 samples.

Results

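The genes that link membrane excitation to contraction, and that move calcium in muscle, were followed in C2C12 myotubes given corticosterone or its vehicle. C2C12 is a clonal mouse myoblast line, without nerve input, that fuses into multinucleated myotubes when serum is lowered. The members were 37 listed gene names, of which 36 matched a row of the deposited read-count table among 46983 rows. The name Mg53 matched none, and the same gene stood in the table as Trim72. Of the 36, 34 passed the filter on low counts and were tested. The groups were wild-type C2C12 myotubes given corticosterone, the main glucocorticoid of rodents, at 1e-07 M for 24 h (3 libraries) and wild-type C2C12 myotubes given ethanol at 1 µL/mL for 24 h (3 libraries). The libraries are called COR1, COR2 and COR3, and VEH1, VEH2 and VEH3, after their labels. The submitters describe them as independent biological replicates of the line, so p-values measure the spread between cultures of a single cell line.

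In a muscle fibre, an action potential spreads along the surface membrane and its transverse tubules, where the dihydropyridine receptor senses the voltage change. This receptor opens the ryanodine receptor of the sarcoplasmic reticulum, the calcium store of the fibre, and the released calcium starts contraction. Calcium pumps then refill the store, where calsequestrin and other proteins hold the ion, and store-operated channels replace calcium lost from the cell.

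Each library held between 23877583 and 29928653 counts. The floor of detection was set at 3 counts, or 0.103 to 0.125 CPM, which covers counting error only. CPM are counts scaled to a common library size, with TMM factors set by the bulk of the genes. In 2 libraries, genes that glucocorticoids are known to induce went against the label. Fkbp5, which encodes a co-chaperone that binds the receptor's complex, stood at 151, 36.9 and 135 CPM in COR1, COR2 and COR3, against 36.9, 177 and 35.4 CPM in VEH1, VEH2 and VEH3. The library labelled COR2 thus lay beside VEH1 and VEH3, and the library labelled VEH2 lay highest. Over all 14450 genes tested, the nearest pairs of libraries were COR1 with VEH3, VEH1 with VEH2, and COR2 with COR3, with root mean square differences of 0.359, 0.362 and 0.399 log2 units. COR1 with VEH3 was the only one of these pairs that held both labels. Directions between the labels therefore rest on labels that are in doubt for COR2 and VEH2.

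The labelled cell type was checked against its markers. Of 15 myotube markers 14 had more than 3 counts in every library, and their summed level was 17054 to 20796 CPM in libraries labelled corticosterone and 15777 to 19954 CPM in those labelled vehicle. Tnnc2, fast troponin C, was the exception, with 1 to 5 counts. Of 5 adipocyte markers, Adipoq, Plin1, Cfd and Lep had at most 3 counts in every library, while Fabp4, a fatty acid carrier, had 15, 3 and 28 counts in COR1, COR2 and COR3, against 0, 29 and 1 in VEH1, VEH2 and VEH3. Of 5 cardiac markers Nppa and Myl7 had at most 3 counts, and the list summed to 15.5 to 38.2 CPM in libraries labelled corticosterone and 9.38 to 22.5 CPM in those labelled vehicle. Most of that cardiac sum was Myh6, at 6.80 to 36.3 CPM. The 4 smooth muscle markers summed to 174 to 187 CPM with corticosterone against 123 to 174 CPM with vehicle. Most of that sum was Smtn (83.2 to 129 CPM) and Actg2 (38.0 to 58.7 CPM), while Myh11 had 3 to 8 counts. Of 5 neuronal and glial markers Snap25 and Syt1 had at most 3 counts, and the list summed to 20.9 to 48.3 CPM with corticosterone against 32.9 to 39.7 CPM with vehicle. Nearly all of it was Tubb3, at 18.7 to 46.7 CPM. The 7 markers of proliferating myoblasts summed to 232 to 245 CPM in libraries labelled corticosterone and 273 to 283 CPM in those labelled vehicle. In bulk RNA, fewer cells of a type and less RNA per cell cannot be told apart.

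Promoter sequences are shown for the members with the widest range over the 6 libraries that had an entry in RefSeq's promoter table (GRCm38.p6), Atp2a1, Pvalb and Clcn1, and for Kcnj2, which ran the other way within each pair of near libraries. Each is the 250 bases before an annotated start, 5′ to 3′ on the gene's strand. Capitals mark every match on either strand to the E-box CANNTG, bound by factors such as MyoD and myogenin, to the MEF2 site (CTA, any 4 bases, TAG) and to the glucocorticoid receptor hexamer AGAACA.
Atp2a1 promoter, chr7:126463074-126463323, minus strand: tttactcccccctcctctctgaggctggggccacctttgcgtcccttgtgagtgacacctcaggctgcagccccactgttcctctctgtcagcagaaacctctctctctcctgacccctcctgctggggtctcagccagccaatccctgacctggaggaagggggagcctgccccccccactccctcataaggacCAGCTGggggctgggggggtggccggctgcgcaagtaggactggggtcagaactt
Pvalb promoter, chr15:78206401-78206650, minus strand: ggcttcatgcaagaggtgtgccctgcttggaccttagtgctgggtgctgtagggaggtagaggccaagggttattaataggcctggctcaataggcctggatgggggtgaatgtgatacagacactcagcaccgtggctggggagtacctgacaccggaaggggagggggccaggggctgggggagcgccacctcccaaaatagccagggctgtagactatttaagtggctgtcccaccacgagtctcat
Pvalb promoter, chr15:78204238-78204487, minus strand: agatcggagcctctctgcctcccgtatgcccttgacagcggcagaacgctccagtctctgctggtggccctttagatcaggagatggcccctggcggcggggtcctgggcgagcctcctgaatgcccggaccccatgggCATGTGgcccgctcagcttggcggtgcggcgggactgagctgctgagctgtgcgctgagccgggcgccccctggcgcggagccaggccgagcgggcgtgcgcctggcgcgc
Clcn1 promoter, chr6:42286435-42286684, plus strand: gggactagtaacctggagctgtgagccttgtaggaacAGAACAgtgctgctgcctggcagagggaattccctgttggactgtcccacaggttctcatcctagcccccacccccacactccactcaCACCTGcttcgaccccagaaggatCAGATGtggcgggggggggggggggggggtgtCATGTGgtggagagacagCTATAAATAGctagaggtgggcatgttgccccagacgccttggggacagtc
Kcnj2 promoter, chr11:111065914-111066163, plus strand: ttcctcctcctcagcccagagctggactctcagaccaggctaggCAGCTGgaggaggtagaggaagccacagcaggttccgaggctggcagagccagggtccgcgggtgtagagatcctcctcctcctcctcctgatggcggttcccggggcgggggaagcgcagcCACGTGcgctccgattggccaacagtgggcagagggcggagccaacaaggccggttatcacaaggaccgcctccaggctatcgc

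Pvalb has 2 annotated starts. Of the 36 members, 24 had an entry, with 27 starts in all. An E-box was found in 18 of these 27 windows, where 66.2% of all 32851 windows held one. The MEF2 site was found in 1, that of Clcn1, against 3.2% of all windows. AGAACA was found in 2, those of Clcn1 and Pln, against 16.1% of all windows, and the palindrome ACANNNTGT in 1, that of Pln, against 5.8%. These matches describe letters in the windows, not sites that a factor was seen to bind.

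Per length of exon, Calr, Casq2, Bin1 and Atp2a1 stood highest. Calr, which encodes the reticulum's calcium-binding chaperone calreticulin, averaged 472 CPM per kilobase over the 6 libraries (range 395 to 563). Casq2 and Bin1 followed at 366 and 364 CPM per kilobase, and their ranges overlapped (298 to 403 and 322 to 409). Atp2a1 averaged 287 CPM per kilobase, with the widest range of these (125 to 463), and overlapped Atp2a2 at 216 (192 to 258). The voltage sensor subunits spanned 196 CPM per kilobase for Cacng1 down to 30.6 for Cacna2d1, and the release channel gene Ryr1 stood at 30.5. Ryr3, Itpr1 and Clcn1 were the lowest of the tested members at 1.95, 1.07 and 0.462 CPM per kilobase. Sln and Pln, which encode the pump inhibitors sarcolipin and phospholamban, were at or near 0. Sln had 2 counts in COR3 and 0 in the other 5 libraries, and Pln had 0 in all 6, which allows at most 0.103 to 0.125 CPM per library. A stretch of 59.6% of Pln's exon length overlaps Gm47644 on the other strand.

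**Figure D1:**
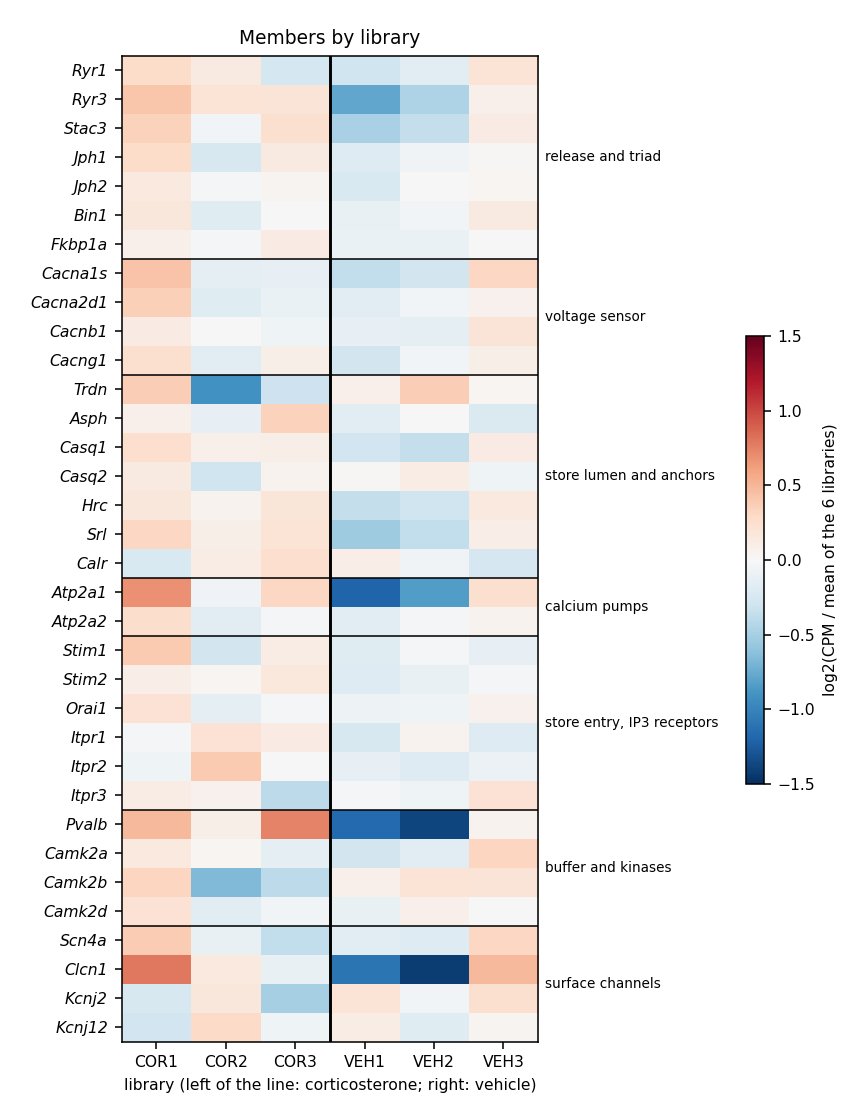
Level of the 34 tested members (rows, grouped by role) in each of the 6 libraries (columns, corticosterone left of the line and vehicle right of it), as log2 of CPM over the gene's mean. Atp2a1, Pvalb and Clcn1 are darkest blue in VEH1 and VEH2, and COR1 is the reddest column.

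Between the labels, no member passed the edgeR test (0 of 34, against 0.0% of all 14450 genes tested). At an unadjusted p under 0.05 there were 5 members, all higher in libraries labelled corticosterone (Ryr3, Stac3, Srl, Stim2 and Pvalb), where 11.8% of all genes reached that p (5.55% of all genes higher and 6.26% lower). DESeq2 and limma-voom also called 0 members, while DESeq2 called 0.955% of all genes. The log2 difference, corticosterone minus vehicle, was above 0 in 28 of the 34, against 50.8% of all genes, and its median was 0.13, against 0.004 over all genes. Between replicates of a label, the members' median per library had a pooled SD of 0.136 log2 units, about as large as that difference. With library totals in place of TMM scaling, 22 of 34 were above 0 and the median was 0.084, where the median over all genes moved by -0.049. The median was 0.036 without COR1 and 0.051 without VEH1. Without both COR2 and VEH2, 27 of 34 were above 0, against 49.7% of all genes, and the median was 0.17, with 0 members called, against 0.0208% of all genes. The labels were fully separated in CPM for 4 members (Ryr3, Stim2, Itpr2 and Pvalb), all higher in libraries labelled corticosterone, where 16.6% of all genes did not overlap (8.41% of all genes higher and 8.19% lower).

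**Figure D2:**
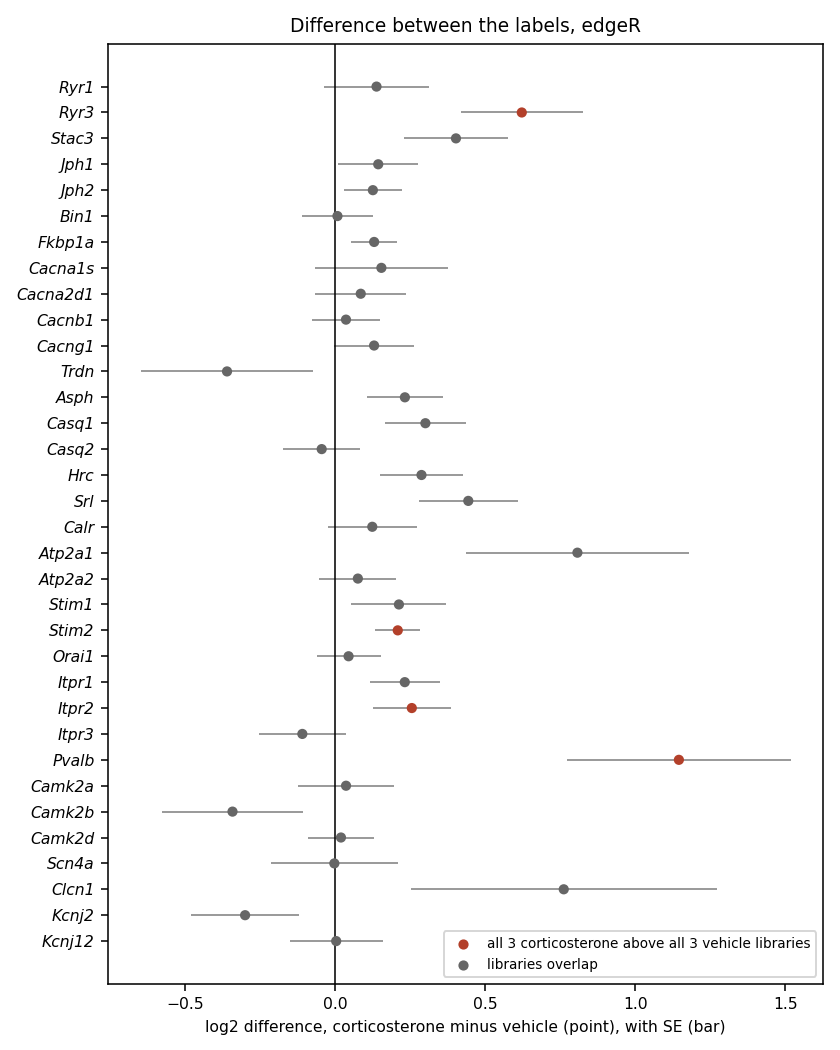
Log2 difference between libraries labelled corticosterone and vehicle (point) with its SE (bar) for the 34 tested members, from edgeR with 3 libraries per label. Red points mark Ryr3, Stim2, Itpr2 and Pvalb, whose libraries did not overlap between the labels, and most points lie above 0 with bars that reach near it.

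Among the release channel and triad genes, all 7 log2 differences were above 0 and 0 passed. Ryr1, the release channel of skeletal muscle (ENSMUSG00000030592, at GRCm38 chromosome 7, 29003344 to 29125179), had 806, 731 and 555 CPM in COR1, COR2 and COR3, against 541, 594 and 766 CPM in VEH1, VEH2 and VEH3. COR1 and VEH3 were high and COR3 and VEH1 low, so the labels overlapped (log2 difference 0.14 ± 0.18, SE, edgeR adjusted p = 0.762). Ryr3, a release channel more typical of immature fibres (ENSMUSG00000057378, at GRCm38 chromosome 2, 112631355 to 113217096), gave 49.4, 42.5 and 42.3 CPM in COR1, COR2 and COR3, against 21.5, 26.8 and 39.1 CPM in VEH1, VEH2 and VEH3. All 3 libraries labelled corticosterone lay above VEH3, and VEH1 and VEH2 were lowest. Its mean was 44.8 ± 4.04 CPM with corticosterone against 29.1 ± 9.04 CPM with vehicle (SD, n = 3 each), a log2 difference of 0.62 ± 0.20 (edgeR adjusted p = 0.364). Aven overlaps 4.8% of the exon length of Ryr3 on the other strand and stood between 12.6 and 15.3 CPM. Stac3, an adaptor that couples the voltage sensor to the release channel, gave 92.8, 71.0 and 86.0 CPM in COR1 to COR3 against 52.3, 57.1 and 79.6 CPM in VEH1 to VEH3 and overlapped only through VEH3. The junctophilin genes Jph1 and Jph2, whose products tie the store to the tubule, differed by 0.14 ± 0.13 and 0.13 ± 0.10. Bin1, which shapes the transverse tubules, gave 1682, 1324 and 1507 CPM in COR1 to COR3 against 1387, 1455 and 1644 CPM in VEH1 to VEH3, a difference of 0.0084 ± 0.12 whose sign turned with scaling. Fkbp1a, a stabiliser of the closed ryanodine receptor, differed by 0.13 ± 0.076.

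All 4 voltage sensor subunits had log2 differences above 0, and 0 passed. Cacna1s, the pore and voltage-sensing subunit (ENSMUSG00000026407, at GRCm38 chromosome 1, 136052750 to 136119822), had 339.6, 228 and 233 CPM in COR1, COR2 and COR3, against 196, 209 and 315 CPM in VEH1, VEH2 and VEH3. COR1 and VEH3 were high and the other 4 libraries lower, and 97.9% of its variation in log2 CPM lay between the 3 pairs of near libraries. Antisense Gm37759 overlaps 20.0% of its exon length, and had at most 0.376 CPM. Cacna2d1, the accessory subunit that extends outside the cell, gave 486, 334 and 354 CPM in COR1 to COR3 against 337, 370.4 and 399 CPM in VEH1 to VEH3, with COR1 alone high. Cacnb1, the intracellular beta subunit, gave 288, 261 and 251 CPM in COR1 to COR3 against 242, 237 and 301 CPM in VEH1 to VEH3 and was highest in VEH3, and Cacng1, the gamma subunit, differed by 0.13 ± 0.13. Adjusted p ran from 0.696 to 0.907.

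In the store, 5 of 7 log2 differences were above 0 and 0 passed. Srl, which encodes the calcium-binding glycoprotein sarcalumenin, gave 919, 788 and 858 CPM in COR1, COR2 and COR3, against 514, 574 and 797 CPM in VEH1, VEH2 and VEH3. VEH1 and VEH2 stood well below the other 4 libraries, and VEH3 lay just above COR2. Its mean was 855 ± 66.0 CPM with corticosterone against 628 ± 149 CPM with vehicle (SD, n = 3 each), a log2 difference of 0.44 ± 0.17 (edgeR adjusted p = 0.386). Hrc, a histidine-rich calcium-binding protein gene, gave 299, 277 and 303 CPM in COR1 to COR3 against 208, 217 and 295 CPM in VEH1 to VEH3 in the same arrangement. Casq1, the calsequestrin of fast fibres (ENSMUSG00000007122, at GRCm38 chromosome 1, 172209894 to 172219868), gave 328, 292 and 294 CPM in COR1, COR2 and COR3, against 227, 215 and 299.6 CPM in VEH1, VEH2 and VEH3, again with VEH1 and VEH2 lowest. Casq2, the calsequestrin of cardiac and slow muscle (ENSMUSG00000027861, at GRCm38 chromosome 3, 102086415 to 102146514), gave 1103, 814 and 1038 CPM in COR1, COR2 and COR3, against 1012, 1078 and 957 CPM in VEH1, VEH2 and VEH3. There COR2 was lowest and VEH2 was near COR1, and the difference was -0.044 ± 0.13 (adjusted p = 0.903). Calr gave 1164, 1466 and 1622 CPM in COR1 to COR3 against 1456, 1308 and 1137 CPM in VEH1 to VEH3, with COR1 and VEH3 lowest. Trdn, which encodes triadin, an anchor of calsequestrin at the release channel, had the widest range of the lumenal genes, at 81.6, 33.6 and 51.0 CPM in COR1, COR2 and COR3, against 66.8, 81.7 and 64.6 CPM in VEH1, VEH2 and VEH3. COR2 and COR3 were lowest, and COR1 lay beside VEH2. Asph, whose locus also encodes junctin, differed by 0.23 ± 0.13, and Clvs1 overlaps 14.3% of its exon length with at most 0.629 CPM.

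Of the pump genes Atp2a1 ranged widely between libraries and Atp2a2 did not, and 0 of 2 passed. Atp2a1, which encodes the fast-fibre calcium pump SERCA1 (ENSMUSG00000030730, at GRCm38 chromosome 7, 126445858 to 126463108), had 1612, 964 and 1238 CPM in COR1, COR2 and COR3, against 435, 559.9 and 1184 CPM in VEH1, VEH2 and VEH3. COR1 had 3.71 times the level of VEH1, VEH1 and VEH2 lay lowest, and VEH3 lay among the libraries labelled corticosterone. Its mean was 1271 ± 325 CPM with corticosterone against 726 ± 401 CPM with vehicle (SD, n = 3 each), a log2 difference of 0.81 ± 0.37 (edgeR adjusted p = 0.437), which ran from 0.54 without VEH1 to 1.35 without VEH3 with each library left out in turn. Rabep2 overlaps 21.9% of its exon length on the other strand and stood between 23.2 and 29.5 CPM. Atp2a2, which encodes SERCA2, the pump of slow and cardiac muscle (ENSMUSG00000029467, at GRCm38 chromosome 5, 122453513 to 122502225), gave 1569, 1176 and 1293 CPM in COR1, COR2 and COR3, against 1170.2, 1297 and 1362 CPM in VEH1, VEH2 and VEH3, within a narrower range and with COR1 highest. The share of Atp2a1 in the sum of both pump genes, per exon length, was 64.2, 58.9 and 62.6% in COR1, COR2 and COR3, against 39.4, 43.0 and 60.3% in VEH1, VEH2 and VEH3. VEH1 and VEH2 were low, and VEH3 lay among the libraries labelled corticosterone. The mean share was 61.9 ± 2.72% with corticosterone against 47.6 ± 11.2% with vehicle (SD, n = 3 each), 14.3 percentage points apart (exact two-sided permutation p = 0.2, 0.3 after Benjamini-Hochberg adjustment over 3 shares), where 3 against 3 libraries allow no p under 0.1.

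**Figure D3:**
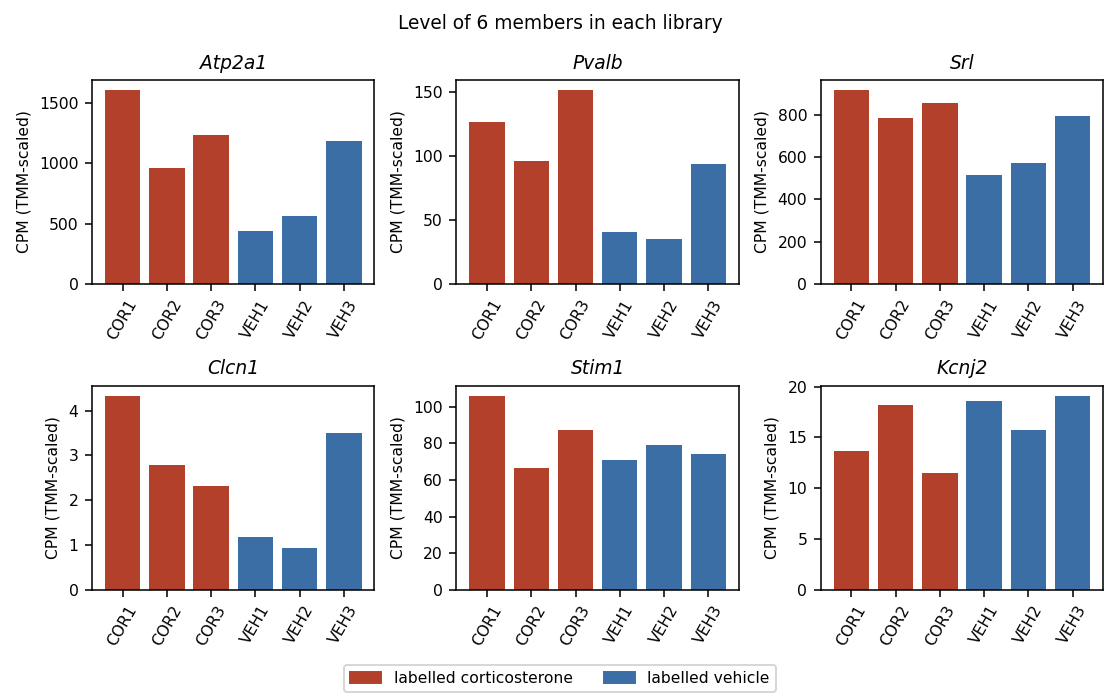
CPM of 6 members in each library, with libraries labelled corticosterone (red) left of those labelled vehicle (blue) and axes from 0. Atp2a1, Pvalb, Srl and Clcn1 are lowest in VEH1 and VEH2, whereas Stim1 is highest in COR1 and Kcnj2 is lowest in COR3.

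Isoform shares were also taken for the calsequestrins and ryanodine receptors. Casq1 made up 29.4, 33.4 and 28.5% of calsequestrin transcripts in COR1, COR2 and COR3, against 23.9, 21.9 and 30.5% in VEH1, VEH2 and VEH3. The mean was 30.4 ± 2.65% with corticosterone against 25.4 ± 4.52% with vehicle (SD, n = 3 each, exact permutation p = 0.3, adjusted 0.3), and the labels overlapped through VEH3. Without COR2 and VEH2 the difference was 1.72 percentage points, against 5.00 with all libraries. Ryr3 made up 6.59, 6.28 and 8.06% of ryanodine receptor transcripts in COR1, COR2 and COR3, against 4.37, 4.93 and 5.54% in VEH1, VEH2 and VEH3. All 3 libraries labelled corticosterone lay above all 3 labelled vehicle, 2.03 percentage points apart in the mean (6.98 ± 0.955% with corticosterone against 4.95 ± 0.589% with vehicle, SD, n = 3 each). The exact permutation p was 0.1, the smallest that 3 against 3 allow, and 0.3 after adjustment.

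**Figure D4:**
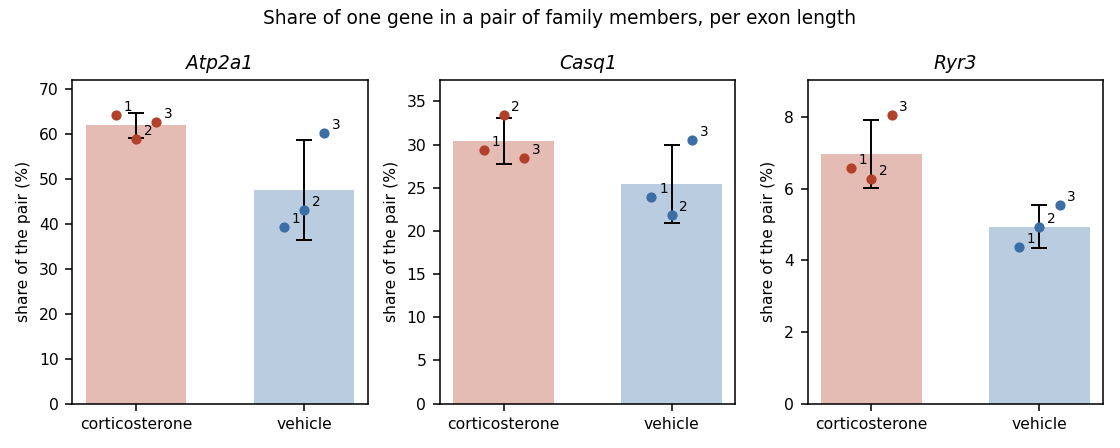
Share (%) of Atp2a1 in Atp2a1 plus Atp2a2, of Casq1 in Casq1 plus Casq2 and of Ryr3 in Ryr1 plus Ryr3, per exon length; bars are means of 3 libraries, whiskers SD, points libraries with their replicate number. Vehicle replicate 3 lies near the corticosterone points for Atp2a1 and Casq1, and below all of them for Ryr3.

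Of 6 genes of store-operated entry and inositol trisphosphate release, 5 log2 differences were above 0 and 0 passed. Stim2, a sensor of calcium in the store (ENSMUSG00000039156, at GRCm38 chromosome 5, 53998499 to 54121057), gave 130.1, 124 and 135 CPM in COR1, COR2 and COR3, against 106, 112 and 119 CPM in VEH1, VEH2 and VEH3. The labels did not overlap, with COR2 and VEH3 the closest libraries across them, and the difference was 0.21 ± 0.075 (edgeR adjusted p = 0.383). Stim1, the sensor that opens Orai channels, gave 106, 66.4 and 87.3 CPM in COR1, COR2 and COR3, against 71.0, 78.9 and 74.2 CPM in VEH1, VEH2 and VEH3, with COR1 and COR3 highest and COR2 lowest (0.21 ± 0.16, adjusted p = 0.604). The difference of Stim1 was 0.040 without COR1, 0.37 without COR2 and 0.41 without both COR2 and VEH2. Orai1, the pore of the store-operated channel, differed by 0.045 ± 0.11. The inositol trisphosphate receptors release calcium from the store, and Itpr1 differed by 0.23 ± 0.12. The receptor gene Itpr2 gave 33.6, 46.4 and 35.0 CPM in COR1, COR2 and COR3, against 32.3, 30.8 and 33.2 CPM in VEH1, VEH2 and VEH3. COR2 alone stood apart, and COR1 lay just above VEH3 (0.26 ± 0.13, adjusted p = 0.468). The difference of Itpr2 was 0.095 without COR2 and 0.066 without both COR2 and VEH2. Itpr3 gave 104, 101 and 73.4 CPM in COR1 to COR3 against 95.6, 92.6 and 112 CPM in VEH1 to VEH3 and was lowest in COR3. Per exon length Itpr3 made up 69.8 to 77.6% of the 3 receptor transcripts in libraries labelled corticosterone and 76.3 to 79.7% in those labelled vehicle.

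Pvalb, which encodes parvalbumin, the cytosolic calcium buffer of fast fibres (ENSMUSG00000005716, at GRCm38 chromosome 15, 78191114 to 78206400), had the largest log2 difference between the labels among the members. It stood at 127, 96.1 and 152 CPM in COR1, COR2 and COR3, against 40.3, 34.9 and 94.2 CPM in VEH1, VEH2 and VEH3. COR3 and COR1 were highest, COR2 lay just above VEH3, and VEH1 and VEH2 were well below all others. Its mean was 125 ± 28.0 CPM with corticosterone against 56.5 ± 32.8 CPM with vehicle (SD, n = 3 each), a log2 difference of 1.15 ± 0.37 (edgeR adjusted p = 0.364), which ran from 0.89 without VEH2 to 1.72 without VEH3 with each library left out in turn. The calcium/calmodulin kinase genes did not share this arrangement. Camk2a, the alpha isoform, gave 149, 138 and 124 CPM in COR1 to COR3 against 112, 120.3 and 169 CPM in VEH1 to VEH3 and was highest in VEH3, and Camk2d, the delta isoform, gave 120.3, 91.7 and 101 CPM in COR1 to COR3 against 95.7, 109 and 104 CPM in VEH1 to VEH3. Camk2b, the beta isoform, gave 23.5, 11.8 and 14.3 CPM in COR1 to COR3 against 19.8, 21.5 and 21.4 CPM in VEH1 to VEH3, lowest in COR2 and COR3 (-0.34 ± 0.24, adjusted p = 0.582). The difference of Camk2b was -0.69 without COR1 and -0.15 without COR2. Per exon length the most abundant isoform was Camk2g, with 49.2 to 57.8% of the 4 kinase transcripts in libraries labelled corticosterone and 49.6 to 52.6% in those labelled vehicle.

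Of the 4 genes of membrane excitability 2 lay above and 2 below 0, and 0 passed. Clcn1, the chloride channel that stabilises the resting membrane (ENSMUSG00000029862, at GRCm38 chromosome 6, 42286685 to 42315756), was the least abundant tested member, at 4.33, 2.77 and 2.32 CPM in COR1, COR2 and COR3, against 1.17, 0.931 and 3.51 CPM in VEH1, VEH2 and VEH3. Those values rest on 27 to 124 counts. COR1 and VEH3 were highest and VEH1 and VEH2 lowest (log2 difference 0.76 ± 0.51, adjusted p = 0.57). With each library left out in turn it ran from 0.43 without VEH2 to 1.57 without VEH3, and it was 0.46 without COR1. Fam131b overlaps 8.2% of the exon length of Clcn1 on the other strand. It stood at 13.2 to 20.6 CPM, above Clcn1 in every library. Scn4a, the sodium channel of the muscle action potential, gave 109, 77.1 and 64.7 CPM in COR1 to COR3 against 74.2, 73.2 and 104 CPM in VEH1 to VEH3, with COR1 and VEH3 high (-0.0019 ± 0.21). The inward rectifier potassium channel gene Kcnj2 (ENSMUSG00000041695, at GRCm38 chromosome 11, 111066164 to 111076821) gave 13.7, 18.2 and 11.4 CPM in COR1, COR2 and COR3, against 18.6, 15.7 and 19.1 CPM in VEH1, VEH2 and VEH3, and was lowest in COR3 and COR1 (-0.30 ± 0.18, adjusted p = 0.532). The difference of Kcnj2 was -0.16 without COR3, -0.50 without COR2 and -0.58 without both COR2 and VEH2. Its relative Kcnj12 gave 24.6, 36.7 and 28.7 CPM in COR1 to COR3 against 32.5, 26.4 and 30.9 CPM in VEH1 to VEH3 and differed by 0.0042 ± 0.16.

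Many members lay in the order of the near pairs of libraries. VEH1 and VEH2 were the 2 lowest libraries for 14 of 34 members, against 18.4% of all genes, among them Atp2a1, Pvalb, Clcn1, Srl, Hrc, Casq1, Ryr3, Stac3 and Cacna1s. COR1 was the highest library for 20 of 34, against 13.9% of all genes. The median member lay 0.24, -0.0077 and 0.055 log2 units from its mean over all libraries in COR1, COR2 and COR3, and -0.16, -0.078 and 0.12 in VEH1, VEH2 and VEH3. The 14 tested myotube markers lay at 0.22, -0.087 and 0.10 in COR1, COR2 and COR3 against -0.27, -0.12 and 0.16 in VEH1, VEH2 and VEH3. Ckm, muscle creatine kinase, gave 338, 203 and 319 CPM in COR1 to COR3 against 97.4, 152 and 225 CPM in VEH1 to VEH3, the embryonic myosin gene Myh3 gave 1586, 1901 and 1772 CPM in COR1 to COR3 against 974, 897 and 1714 CPM in VEH1 to VEH3, and Myog, the differentiation factor myogenin, gave 747, 790.2 and 835 CPM in COR1 to COR3 against 631, 674 and 864 CPM in VEH1 to VEH3. The markers did not all lie this way: of the 14 tested, 9 log2 differences were above 0 and 5 below. Those below were Mef2c, a muscle transcription factor (-0.31 ± 0.13), the adult myosin genes Myh2 (-0.74 ± 0.38) and Myh1 (-0.24 ± 0.30), the myosin light chain gene Mylpf (-0.10 ± 0.10) and the desmin gene Des (-0.044 ± 0.12). Mef2c gave 519, 386 and 395 CPM in COR1 to COR3 against 522, 563 and 525 CPM in VEH1 to VEH3, lower without overlap (adjusted p = 0.408). The 7 markers of proliferating myoblasts lay at a median of -0.21, -0.14 and -0.18 in COR1 to COR3 against 0.22, 0.14 and 0.10 in VEH1 to VEH3. Of these 7, 5 log2 differences were below 0 and 2 above, those of Pax7 (0.091 ± 0.13) and Myf5 (0.14 ± 0.31). Top2a, Ccna2 and Ccnb1 were lower without overlap between the labels, 3 of 7 against 8.19% of all genes. DESeq2 called 2 of the 7, Ccna2 (DESeq2 adjusted p = 0.0137) and Top2a (0.0398), against 0.955% of all genes. EdgeR and limma-voom called 0 of the 7. The part of differentiation state in the members' values was not tested. Of the variation in log2 CPM, a median of 76.3% lay between the pairs for the members, against 65.9% over all genes, and a median of 21.5% lay between the labels, against 22.2%. The pairs were known from these same libraries, so these shares are a description.

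Within each pair, the library with the higher Fkbp5 level was set against the other, for each pair by itself and with no pooling, since that level is a measurement and not a label. COR1 was above VEH3 for 29 of 34 members (median log2 difference 0.14), against 49.5% of all genes. COR3 was above COR2 for 23 (median 0.13), against 49.3%, and VEH2 was above VEH1 for 23 (median 0.10), against 50.4%. All 3 held for 19 members, against 20.0% of all genes, and the opposite held in all 3 for 4 members, Cacnb1, Itpr3, Kcnj2 and Kcnj12, against 20.5%. Of the myotube markers 9 of 14 were likewise higher in all 3 pairs, and 1 (Myh3) was lower in all 3. Of the markers of proliferating myoblasts 4 of 7 were lower in all 3, and 1 (Myf5) was higher in all 3. COR1, COR3 and VEH2, the 3 libraries with the higher Fkbp5, were also the 3 highest for 3 of 34 members (Asph, Casq2 and Stim1), against 4.89% of all genes.

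Many differences within pairs were small. Over the 19 members that were higher in all 3 they ran from 0.021 to 0.52 log2 units for COR1 minus VEH3, from 0.032 to 0.60 for COR3 minus COR2 and from 0.0087 to 0.36 for VEH2 minus VEH1, with Orai1, Hrc, Cacna1s and Bin1 holding the smallest. The members given next were chosen after their values were seen. Trdn differed by 0.34, 0.60 and 0.29 log2 units for COR1 minus VEH3, COR3 minus COR2 and VEH2 minus VEH1, although by label it stood lower in corticosterone (-0.36 ± 0.29, adjusted p = 0.628). Without COR2 and VEH2 the label difference of Trdn was 0.013. Camk2b, also lower by label, was likewise higher within each pair, at 0.13, 0.27 and 0.12. Stim1 differed by 0.52, 0.40 and 0.15 within the pairs in the same order, Asph by 0.29, 0.46 and 0.17 and Jph1 by 0.25, 0.37 and 0.13. Atp2a1 differed by 0.44, 0.36 and 0.36 and Atp2a2 by 0.20, 0.14 and 0.15, so the pump genes both lay higher in the library given before the minus sign. Kcnj2 differed by -0.48, -0.67 and -0.25 and Kcnj12 by -0.33, -0.35 and -0.30, lower in each pair. Itpr3 differed by -0.11, -0.46 and -0.046 and Cacnb1 by only -0.065, -0.059 and -0.025. By label the difference of Kcnj12 was 0.0042 ± 0.16. Pvalb stood at 0.43, 0.66 and -0.21. With 1 library on each side of a pair there is no replicate check and no test.

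**Figure D5:**
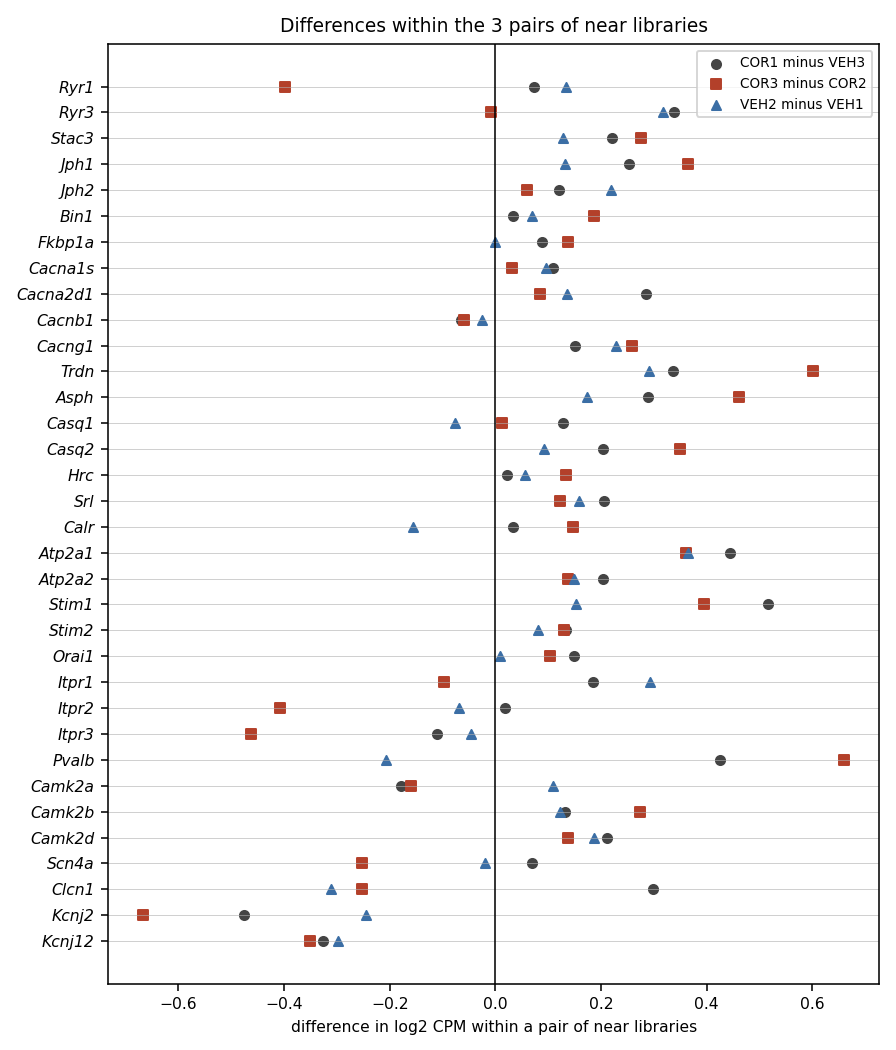
Difference in log2 CPM within each pair of near libraries for the 34 tested members: COR1 minus VEH3 (circles), COR3 minus COR2 (squares) and VEH2 minus VEH1 (triangles). All 3 symbols lie right of 0 for 19 members, among them Trdn, Stim1 and Atp2a1, and left of 0 for Cacnb1, Itpr3, Kcnj2 and Kcnj12.

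Other genes of calcium handling gave 100 names with a row, of which 86 were tested. No gene of these passed edgeR (0 of 86), 8 had an unadjusted p under 0.05 (2 higher and 6 lower), limma-voom called 0 and DESeq2 called 1. Over all genes 11.8% had such a p (5.55% higher and 6.26% lower) and DESeq2 called 0.955%, so these counts lie near the background. Log2 differences were above 0 for 48 of 86, with a median of 0.033. Without overlap between the labels, 4 of the 86 were higher and 4 lower, against 8.41% and 8.19% of all genes. In the near pairs, COR1 was above VEH3 for 43 of the 86, COR3 above COR2 for 43 and VEH2 above VEH1 for 33. All 3 held for 17 of the 86, against 20.0% of all genes, and the opposite in all 3 for 21, against 20.5%. These genes thus did not share the members' excess within the pairs. The DESeq2 call was Atp2b4, a plasma membrane calcium pump, at 163, 151 and 166 CPM in COR1, COR2 and COR3, against 99.8, 94.9 and 132 CPM in VEH1, VEH2 and VEH3. The labels did not overlap, and the difference was 0.56 ± 0.13 (edgeR adjusted p = 0.364, DESeq2 adjusted p = 0.0291). Atp2b1, another plasma membrane calcium pump gene, differed by 0.14 ± 0.10.

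In the other triad genes 11 of 20 were above 0. Tmem38a, a counter-ion channel of the store, gave 423, 501 and 535 CPM in COR1 to COR3 against 395, 388 and 481 CPM in VEH1 to VEH3, and Trim72, the membrane repair gene also called Mg53, gave 391, 317 and 326 CPM in COR1 to COR3 against 292, 291 and 433 CPM in VEH1 to VEH3, highest in VEH3. Stac, a relative of Stac3, had the smallest p of that list and stood at 0.175, 0.137 and 0.157 CPM in COR1 to COR3 against 0.391, 0.414 and 0.543 CPM in VEH1 to VEH3, near the floor. In the other reticulum genes 7 of 11 were above 0, and Canx, the chaperone calnexin, did not overlap between the labels, at 656, 709 and 705 CPM in COR1 to COR3 against 627, 594 and 614 CPM in VEH1 to VEH3 (0.17 ± 0.078, adjusted p = 0.434). Calu, the calcium-binding calumenin, gave 905, 1107 and 1091 CPM in COR1 to COR3 against 999, 972 and 862 CPM in VEH1 to VEH3. Of 7 other store-entry genes 3 were above 0, and the abundant Saraf and Septin7 differed by 0.054 ± 0.088 and -0.0091 ± 0.087. Of 20 calcium-signalling genes 8 were above 0. Calm2, a calmodulin gene, gave 239, 270.4 and 287 CPM in COR1 to COR3 against 311, 306 and 241 CPM in VEH1 to VEH3, and S100a1, a calcium-binding regulator of the release channel and pump, gave 37.2, 26.5 and 30.4 CPM in COR1 to COR3 against 48.1, 38.4 and 42.0 CPM in VEH1 to VEH3, lower without overlap in libraries labelled corticosterone (-0.45 ± 0.14, adjusted p = 0.364). Among 16 other excitability genes 10 were above 0. Kcnn3, a calcium-activated potassium channel, gave 84.8, 79.0 and 77.0 CPM in COR1 to COR3 against 44.7, 51.7 and 72.8 CPM in VEH1 to VEH3, higher without overlap (0.51 ± 0.17, adjusted p = 0.364).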

How the data were processed

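Poly(A) RNA was sequenced from 6 C2C12 myotube libraries. The file deposited by the authors holds unnormalized counts of reads, 1 row per gene. Per the submitters' processing notes, mm10 was the build and the tools were HTSeq 0.6.1, HISAT2 2.0.5 and DESeq2 1.24.0. Annotation release and strand setting: not given in the sources used here, so reads of overlapping genes cannot be told apart. No column was left unmapped (0). Coordinates and exon lengths came from GENCODE M21 (98.95% of identifiers matched), promoters from RefSeq.

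The 3 libraries labelled corticosterone were set against the 3 labelled vehicle with glmQLFTest of edgeR 4.0.16 in R 4.3.3 (quasi-likelihood; filterByExpr, TMM, two-sided, Benjamini-Hochberg over 14450 genes, threshold 0.05), with no block. SE is the log2 difference over the square root of F. Differences within pairs used log2 CPM with a prior count of 2. Alternatives included DESeq2 1.42.0 and limma-voom (limma 3.58.1). The script was tested on simulated data with 200 changed genes.

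Members and lists were chosen with earlier results of these data known. By rule, values in every library were given for members without overlap, for the 2 most abundant per role and for the 5 with the widest range. Further members so described, such as Srl, Stim1 and Kcnj2, were chosen after their values were seen. Other pathway genes named were the 2 most abundant and the smallest p per list, of which some are not reported here.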

Additional observations from a re-analysis of the deposited data

How the results depend on the processing

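0 members and 0 of all genes were called by edgeR with all libraries. 0 members were called under every alternative: DESeq2, limma-voom, 3 other scalings, 2 other count filters, the replicate block, a block of near pairs, and with libraries left out. Over all genes, DESeq2 called 138 and the fit without corticosterone replicate 2 and vehicle replicate 2 called 3. With each library left out, 0 to 29 genes were called, 29 without COR1 and 11 without VEH3. Of the other pathway genes DESeq2 called 1 (Atp2b4). The members' median of 0.13 ran from 0.036 to 0.18 with each library left out, lowest without COR1, and from 0.084 to 0.17 otherwise. Replicate numbers did not pair the libraries (correlations of deviations -0.153, -0.266 and -0.325 for numbers 1, 2 and 3), and with the replicate block 0 genes were called.

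Signs turned for 14 members, including Trdn and Camk2b, whose differences were among the larger ones (-0.36 and -0.34), and the cause was not tested. With each library left out, the ranges were -0.049 to 0.17 (Atp2a2), -0.080 to 0.092 (Bin1), -0.057 to 0.39 (Cacna1s), -0.10 to 0.19 (Cacna2d1), -0.026 to 0.15 (Cacnb1), -0.084 to 0.23 (Camk2a), -0.10 to 0.10 (Camk2d), -0.13 to 0.076 (Casq2), -0.20 to 0.034 (Itpr3), -0.17 to 0.13 (Kcnj12), -0.063 to 0.12 (Orai1), -0.75 to -0.099 (Trdn, 1 direction) and -0.24 to 0.17 (Scn4a). Without both libraries numbered 2, values were -0.011 (Cacnb1), -0.04 (Camk2a), 0.12 (Casq2), -0.25 (Kcnj12), -0.23 (Itpr3, in the same direction) and 0.013 (Trdn). With library totals they were -0.038 (Bin1), -0.0097 (Cacnb1), -0.0086 (Camk2a), -0.027 (Camk2d), -0.045 (Kcnj12) and -0.0015 (Orai1). With the block of near pairs they were -0.065 (Cacnb1), -0.18 (Camk2a), 0.13 (Camk2b), 0.20 (Casq2), -0.33 (Kcnj12), 0.069 (Scn4a) and 0.34 (Trdn). Kcnj12 was also -0.00064 (DESeq2), -0.0053 (limma-voom), -0.00053 (RLE) and -0.010 with the replicate block. Upper-quartile scaling gave -0.015 for Kcnj12 and -0.0080 for Bin1, and the filter of 50 counts gave 0.0013 for Scn4a. The remaining members kept their direction under all of these. The shares of Atp2a1, Casq1 and Ryr3 ran from 10.3 to 20.7, 3.22 to 7.54 and 1.49 to 2.38 percentage points with each library left out. Clcn1 rests on the fewest counts of the tested members.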
